A study of Mus musculus with 12 samples.

Results

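The lower of the PFOS doses in this series, 2 µM, was compared with no added PFOS in C2C12 cells, a mouse line of skeletal muscle precursors (myoblasts). The comparison takes the 4 libraries of 2 µM and the 4 libraries of 0 µM, 8 of the 12 libraries of the series, and every gene with enough counts to test, 16038 of the 54532 genes in the count table. Per the labels, the cells had reached full confluency and were then exposed for 24 h. Messenger RNA was purified from total RNA and sequenced. The 4 libraries left over received 6 µM and enter here as part of the shared fit and as side values. All libraries come from 1 cell line with no genetic change named in the labels, and the labels do not say what vehicle the 0 µM cultures received. The labels number the replicates and do not say whether they were separate cultures, so the p-values measure the spread between these libraries, which may be technical.

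PFOS (perfluorooctane sulfonate) is a long-lived fluorinated surfactant with the general build of a fatty acid, and it is known to bind and activate the fatty-acid-sensing nuclear receptors of the PPAR family. PPARs switch on genes that store, release and burn fat. Genes linked to a stress programme and to growth signalling are described below. The activity of either was not tested. In the integrated stress response, kinases slow general translation while the transcription factor ATF4 is made and switches on genes that make, import and load amino acids. Growth factor signalling through ERK and the YAP coactivators switches on immediate early genes and secreted matrix-associated proteins. Confluent C2C12 cells can leave the cell cycle and fuse into muscle fibres, so genes of muscle differentiation are also read here.

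Total counts ran from 30206155 to 45644739 in the 4 libraries at 0 µM and from 39837059 to 50351082 in the 4 at 2 µM. The difference in depth did not pass an exact two-sided permutation test over libraries (p = 0.143, adjusted 0.381 over 8 library measures, the smallest p that 4 against 4 allows being 0.0286). The TMM scaling factors, 1.012 to 1.021 at 0 µM and 0.9918 to 0.9996 at 2 µM, did not overlap (exact permutation p = 0.0286, adjusted 0.114). Among the 10 myoblast markers every gene was detected, and their summed level was 698 to 799 CPM (counts scaled to a common library size) at 0 µM and 674 to 718 CPM at 2 µM. Marker levels in this paragraph, and marker sums below, were scaled by total counts alone and not by TMM. Of 7 fat cell markers Adipoq, Lep and Retn had no count in any of the 8 libraries, and Fabp4 had 5.70 to 8.89 CPM. Of 5 epithelial markers Cdh1, Epcam and Krt18 had no count, and Krt14 had 18 to 23 CPM. A single library stood apart in the direction of the rises: replicate 4 at 2 µM was the highest of its dose for 169 of the 258 genes called higher, and without it 72 genes were called higher and 34 lower. For that reason calls lost without that library or another are given below.

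Exposure to 2 µM left 258 genes (1.61% of those tested) higher and 119 (0.742%) lower. Calls rest on a Benjamini-Hochberg adjusted p below 0.05 in a quasi-likelihood test of edgeR. The changes were small. The median rise was 1.19-fold (quartiles 1.15 and 1.28) and the median fall 1.25-fold (quartiles 1.18 and 1.36). Of the higher genes 17 moved by at least 1.5-fold and 6 by at least 2-fold, and of the lower genes 19 and 7. The split between directions depended on the scaling: it was 258 higher against 119 lower with TMM, 184 against 134 with upper-quartile scaling and 136 against 178 with library totals alone. In a test against a minimum change of 1.2-fold, 10 genes passed (0.0624%): Angptl4, Dnah6, Kctd16, Atf3, Ppp1r15a, Ptgs2, Cpt1a, Ero1l and Gm10705 were higher, and Gm5854 was lower. The last 2 are annotated as processed pseudogenes.

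The called genes were mostly well expressed and protein coding. Their median mean level was 6.84 log2 CPM for the higher genes and 5.25 for the lower genes, beside 4.15 over all tested genes. Protein-coding genes made up 97.3% of the higher and 88.2% of the lower genes, and 80% of all tested genes. The CPM of the doses did not overlap for 238 of the 258 higher genes and 113 of the 119 lower genes, while 8.35% of all tested genes had no overlap. Overlap was read from the same libraries as the calls, so here and below it adds no separate support to a call. Calls that held in all 8 fits without 1 of the 0 or 2 µM libraries numbered 65 higher (0.405% of tested genes) and 30 lower (0.187%), and the descriptions below lead with those. A called gene that lies outside the plot of level against change is Gfpt2. This gene, which makes hexosamine precursors, had no count at 0 µM and 2, 8, 11 and 12 counts in the 2 µM libraries, at least 9.13-fold higher against a floor of 3 counts over the group. Its call was lost in 6 of the 12 fits without 1 library. It was chosen after its values were seen.

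**Figure D1:**
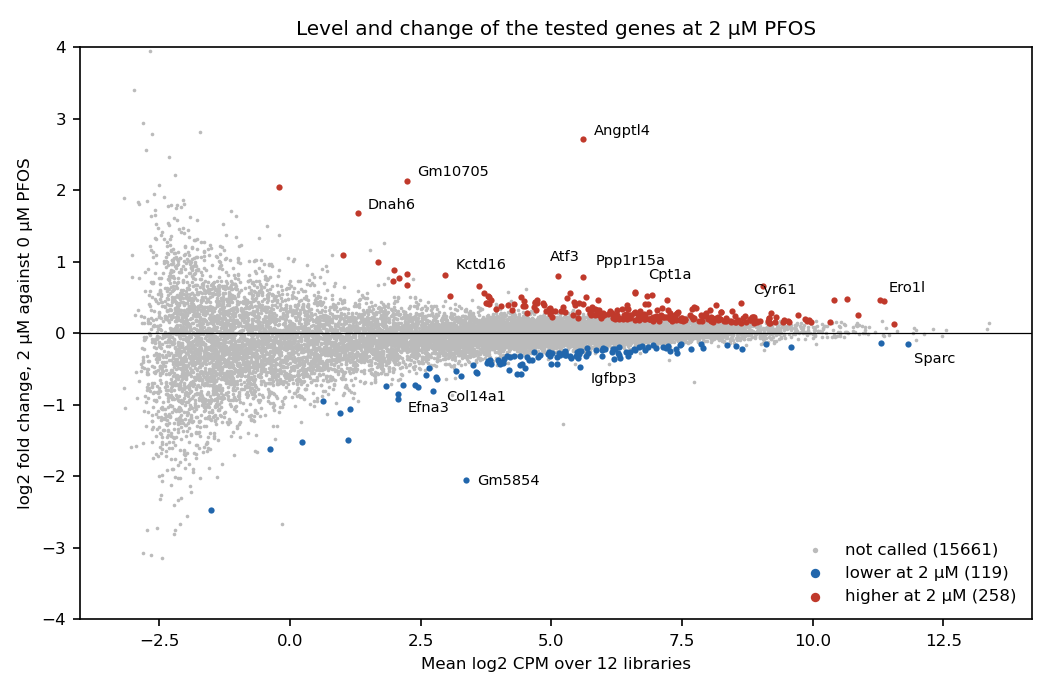
Mean level over 12 libraries (log2 CPM, horizontal) against the log2 fold change at 2 µM (vertical) for each tested gene; red points are the 258 genes called higher and blue points the 119 called lower. Most called genes lie to the right of 2.5 log2 CPM and within 1 log2 unit of no change, Angptl4 stands alone at 2.71, and 1 gene (Gfpt2) lies outside the axis limits of 4.

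The gene with the smallest adjusted p concerned fat handling. Angptl4 encodes a secreted inhibitor of lipoprotein lipase and is a classic PPAR target on chromosome 17 of the GRCm38 build (chr17:33773750-33781575). It measured 8.91, 8.25, 10.5 and 10.03 CPM in the 0 µM libraries and 62.8, 59.9, 58.8 and 65.3 CPM in the 2 µM libraries. The 2 µM values formed a tight cluster far above every control, a 6.56-fold rise (log2 fold change 2.71 ± 0.069 (SE), edgeR adjusted p = 1.73e-17). At 6 µM it reached 208, 212, 195 and 192 CPM, and that further step over 2 µM was also called.

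Cpt1a, which commits long-chain fatty acids to import into mitochondria, gave 82.2, 83.2, 86.4 and 92.4 CPM at 0 µM and 129, 124, 123 and 121 CPM at 2 µM. Its groups were separated by a gap wider than either group's range (log2 fold change 0.53 ± 0.049 (SE), edgeR adjusted p = 1.96e-06). Plin2, which coats lipid droplets, stood at 103, 112, 106 and 98.2 CPM at 0 µM and 128, 134, 132 and 141 CPM at 2 µM (log2 fold change 0.35 ± 0.046 (SE), edgeR adjusted p = 0.000207). All 4 exposed libraries were above all controls, and the calls for Angptl4, Cpt1a and Plin2 held in each of the 12 fits that left out 1 library.

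Of 25 tested genes in a list of PPAR targets, 8 (32.0%) rose and none fell, with a list median of 0.21 log2 beside -0.0108 over all tested genes. The 8 were Angptl4, Cpt1a, Plin2, Klf10, Ucp2, Acot2, Acadl and Ech1, of which 4 rose in every fit without 1 of the 8 libraries. Acadl and Ech1, enzymes of fatty acid breakdown in mitochondria, rose 1.16-fold and 1.19-fold, Acot2 (a mitochondrial acyl-CoA thioesterase) 1.36-fold and the uncoupling protein gene Ucp2 1.24-fold. Without replicate 4 at 2 µM the list held 4 calls, and the adjusted p was 0.0529 for Acadl, 0.0859 for Ech1, 0.094 for Acot2 and 0.0529 for Ucp2. Pparg itself, the receptor of fat cell formation, passed narrowly (log2 fold change 0.32 ± 0.086 (SE), edgeR adjusted p = 0.049) and lost its call in each of the 12 fits without 1 library, with adjusted p between 0.0506 and 0.15.

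Neighbouring lipid functions moved less. Beta-oxidation enzymes gave 2 higher calls among 23 tested (median 0.03 log2), acyl-CoA synthetases and thioesterases 2 of 21 (0.09), fatty acid and triglyceride synthesis 2 of 22 (0.03) and phospholipid synthesis and remodelling 2 of 28 (-0.01), and no gene of these lists fell. The lists overlap: the beta-oxidation calls were Cpt1a and Acadl, which with Acot2 also stand on the PPAR list. Agpat3 is counted in both the triglyceride and the phospholipid list. Without replicate 4 at 2 µM each of the 4 lists held 1 call or none. Dgat2, which closes triglyceride synthesis, rose from 13.8, 18.5, 20.1 and 16.9 CPM to 21.8, 26.5, 23.7 and 26.8 CPM (log2 fold change 0.51 ± 0.102 (SE), edgeR adjusted p = 0.00992; 0.0529 without replicate 4 at 2 µM). Acsbg1, a very-long-chain acyl-CoA synthetase, rose 1.77-fold (log2 fold change 0.82 ± 0.171 (SE), edgeR adjusted p = 0.0118; 0.0731 without that library). The phospholipid acyltransferases Agpat3 and Lpcat3 rose 1.15-fold and 1.16-fold, and both lost their calls without several single libraries (edgeR adjusted p up to 0.0858 for Agpat3 without 2 µM replicate 1, and up to 0.0897 for Lpcat3 without 2 µM replicate 2). No call was made among 26 genes of cholesterol synthesis and uptake or 30 sphingolipid genes.

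The related dehydrogenase Aldh9a1, which oxidises aldehydes including a precursor of carnitine, was among the 10 genes with the smallest adjusted p. Its levels were 91.7, 86.6, 85.97 and 89.2 CPM at 0 µM and 119.6, 119, 112 and 119 CPM at 2 µM, with no overlap (log2 fold change 0.41 ± 0.048 (SE), edgeR adjusted p = 6.63e-05). In the Aldh family 3 of 14 tested members (21.4%) rose: Aldh9a1, Aldh1l2 and Aldh18a1, the last of which makes the precursor of proline. Among 56 aldehyde dehydrogenases, aldo-keto reductases and short-chain reductases the fourth riser was Dhrs9, a retinol dehydrogenase (log2 fold change 0.41 ± 0.079 (SE), edgeR adjusted p = 0.00797). Cyp26b1, which degrades retinoic acid, also rose 1.71-fold (log2 fold change 0.77 ± 0.157 (SE), edgeR adjusted p = 0.0111), so 2 of 19 retinoic acid genes were higher and none was lower. Calls for Aldh9a1, Aldh1l2, Dhrs9 and Cyp26b1 held in each fit without 1 library.

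**Figure D2:**
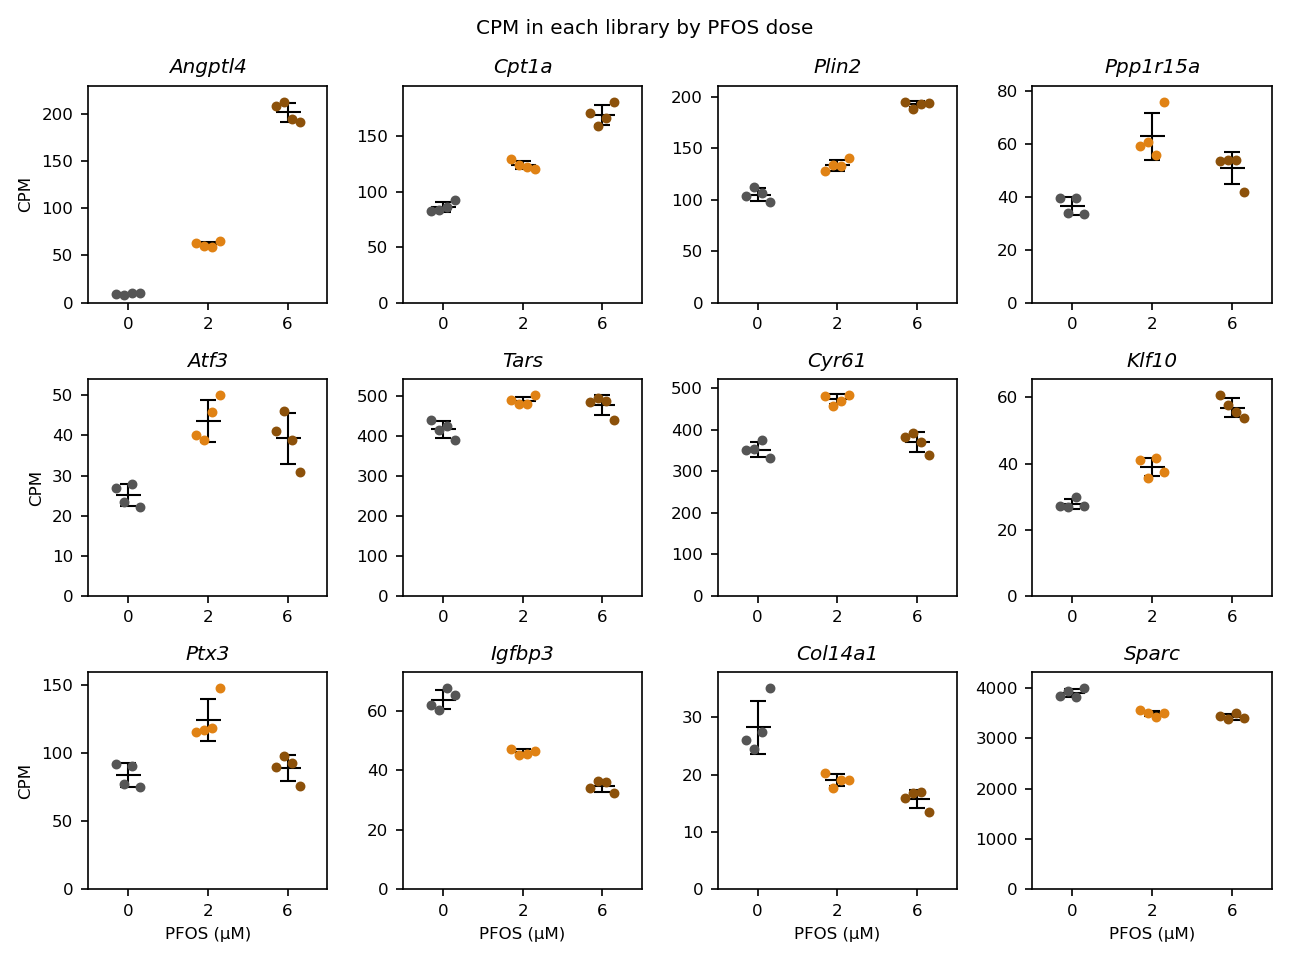
CPM (vertical, from 0) of 12 genes in each of the 12 libraries by PFOS dose (horizontal, µM); points are libraries and bars the mean and SD of 4. Angptl4, Cpt1a and Plin2 rise at each dose, Cyr61 and Ptx3 are highest at 2 µM, and Igfbp3, Col14a1 and Sparc are lower at 2 µM than in every control library.

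Genes of the integrated stress response formed the second group. Across 5 lists covering its regulators, amino acid synthesis, one-carbon metabolism, amino acid transporters and cytosolic tRNA synthetases, 28 of 101 tested genes (27.7%) rose and none fell, with a median of 0.12 log2. They made up 10.9% of all higher calls. Without replicate 4 at 2 µM 8 of the 101 were called higher, and without 0 µM replicates 2 or 4 the count was 16 or 15. It was 20 to 30 in the other 9 fits without 1 library. Changes were modest for all but the regulators at the top.

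Some promoters of these genes carry TTGCATCA, the composite element that ATF4 is known to bind together with C/EBP proteins. The windows shown are the 160 bases before the RefSeq gene start (build GRCm38.p6), written in the direction of transcription for 4 risers of different function, with that element in capitals. Fgf21 is a hormone, Got1 makes aspartate, Tars charges threonine onto its tRNA and Atf3 is a transcription factor.
Fgf21, chr7:45615491-45615650, minus strand: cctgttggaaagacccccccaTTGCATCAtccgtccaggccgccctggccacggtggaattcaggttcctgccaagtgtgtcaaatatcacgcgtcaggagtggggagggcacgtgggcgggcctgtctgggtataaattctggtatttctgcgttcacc
Got1, chr19:43524606-43524765, minus strand: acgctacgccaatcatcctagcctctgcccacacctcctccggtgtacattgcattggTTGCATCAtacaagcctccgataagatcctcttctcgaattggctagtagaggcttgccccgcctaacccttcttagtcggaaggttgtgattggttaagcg
Tars, chr15:11399659-11399818, minus strand: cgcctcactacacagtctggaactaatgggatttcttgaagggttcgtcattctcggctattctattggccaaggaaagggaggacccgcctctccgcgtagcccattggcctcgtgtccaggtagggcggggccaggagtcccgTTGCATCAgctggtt
Atf3, chr1:191183334-191183493, minus strand: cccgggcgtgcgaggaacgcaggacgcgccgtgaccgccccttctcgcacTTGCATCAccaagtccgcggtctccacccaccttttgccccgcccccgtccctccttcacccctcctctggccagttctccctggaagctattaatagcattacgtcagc
The windows shown were picked for holding the element. The Fgf21 and Got1 windows lie outside their genes in GENCODE M21, and the Tars window reaches 7 bases into an exon. The Atf3 window lies within the span of a longer transcript and holds 7 exon bases. Searched on both strands in all 32851 promoters of 300 bases in the RefSeq table, the element occurred in 294 (0.895%). It begins 139 bases before the start in Fgf21, 102 in Got1, 15 in Tars and 110 in Atf3. The same element was present at Nupr1 and Aars, which also rose, and all 160 bases of each of their windows lie in annotated exons. A share among the risers is void, because only 21 of the 28 (75%) matched an entry in the table, under the 80% set for such a share. A match of letters is no measure of binding.

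At the top of the list of regulators was Ppp1r15a (GADD34), which directs a phosphatase to restart translation. It gave 39.6, 33.7, 39.4 and 33.5 CPM at 0 µM and 58.9, 60.7, 55.7 and 75.7 CPM at 2 µM. No values overlapped and replicate 4 was the highest of its dose (log2 fold change 0.78 ± 0.094 (SE), edgeR adjusted p = 8.64e-05). Atf3, a stress-induced repressor and activator of the ATF/CREB class, gave 26.9, 23.5, 27.8 and 22.2 CPM and 40.05, 38.9, 45.8 and 50.01 CPM, again without overlap (log2 fold change 0.80 ± 0.104 (SE), edgeR adjusted p = 0.000163).

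Fgf21, a hormone released from stressed muscle and liver, was 48.3, 48.5, 57.2 and 44.8 CPM at 0 µM and 67.8, 65.5, 63.7 and 76.3 CPM at 2 µM (log2 fold change 0.46 ± 0.077 (SE), edgeR adjusted p = 0.0025). Nupr1, a small stress-induced chromatin protein, was 76.9, 81.2, 87.8 and 72.3 CPM and 90.5, 104, 97.02 and 114 CPM (log2 fold change 0.35 ± 0.067 (SE), edgeR adjusted p = 0.00776). Each of these 4 genes was separated between the doses and kept its call in all 12 fits without 1 library. In all, 8 of 22 regulators (36.4%) rose and none fell, with a median of 0.17 log2. Atf4 itself moved from 895, 955, 965 and 879 CPM to 1037, 1034, 1003 and 1039 CPM, a rise of 1.11-fold (log2 fold change 0.16 ± 0.036 (SE), edgeR adjusted p = 0.0245). The pseudokinase gene Trib3 rose 1.18-fold (log2 fold change 0.23 ± 0.049 (SE), edgeR adjusted p = 0.0118), and Cebpg and Ppp1r15b 1.19-fold and 1.13-fold. Ddit3 (CHOP), a partner linked to cell death, had 95.98, 102, 99.99 and 84.4 CPM at 0 µM and 104, 119, 112 and 129 CPM at 2 µM and did not pass (log2 fold change 0.28 ± 0.081 (SE), edgeR adjusted p = 0.0755). Its values did not overlap between the doses. Ddit3 passed without 2 µM replicate 1, 6 µM replicate 2 or 6 µM replicate 4 (edgeR adjusted p 0.0491, 0.0485 and 0.03). It did not pass in the other fits without 1 library. Without replicate 4 at 2 µM the regulators held 4 calls, with adjusted p of 0.0947 for Atf4, 0.0596 for Trib3, 0.162 for Cebpg and 0.166 for Ppp1r15b; without 0 µM replicate 4 they held 5. Trib3 and Cebpg are named outside the rule.

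Among cytosolic tRNA synthetases, which load amino acids onto tRNAs, 8 of 20 (40.0%) rose: Tars, Wars, Lars, Gars, Eprs, Nars, Sars and Aars. The list median was 0.14 log2 and 18 of the 20 had a positive change. Tars measured 439.8, 414, 425 and 389 CPM at 0 µM and 489, 480.1, 481 and 502 CPM at 2 µM, a separated 1.17-fold rise (log2 fold change 0.23 ± 0.044 (SE), edgeR adjusted p = 0.00786) that held in every fit without 1 library. Wars, Lars and Gars rose 1.19-fold, 1.15-fold and 1.11-fold. This count depended on single libraries: it was 1 without replicate 4 at 2 µM, 2 to 5 without 0 µM replicates 2, 3 or 4 or 2 µM replicates 1 or 2, and 8 at most. Of the 17 synthetases in a list for mitochondria, 1 rose. That gene is Lars2, whose counts are uncertain and are given further on.

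Genes of amino acid supply gave small rises and no call lower. Positive changes numbered 13 of 19 in amino acid synthesis, 10 of 17 among one-carbon genes and 15 of 23 among transporters, with medians of 0.11, 0.05 and 0.09 log2. One-carbon enzymes of mitochondria were the steadiest: Mthfd1l, which releases formate, gave 332, 318, 328 and 322 CPM at 0 µM and 386, 375, 366 and 403 CPM at 2 µM (log2 fold change 0.24 ± 0.040 (SE), edgeR adjusted p = 0.00269). Aldh1l2, which oxidises folate-bound formyl groups, gave 797, 661, 724 and 758 CPM and 850.0, 852, 881 and 923 CPM (log2 fold change 0.25 ± 0.045 (SE), edgeR adjusted p = 0.00407). Both were separated between doses in all 8 libraries and held in every fit. Shmt2, which splits serine, rose 1.12-fold and had an adjusted p of 0.116 without replicate 4 at 2 µM, so 3 of 17 genes in the list rose. In the list of amino acid transporters 4 of 23 rose, and Slc6a9, a glycine importer, led with 119, 109.9, 117 and 107 CPM at 0 µM and 132, 134, 143 and 157 CPM at 2 µM (log2 fold change 0.32 ± 0.053 (SE), edgeR adjusted p = 0.0023). The subunits Slc3a2 and Slc7a5 of the large neutral amino acid transporter rose 1.15-fold and 1.14-fold, and the arginine and lysine importer Slc7a1 1.15-fold. Without replicate 4 at 2 µM their adjusted p was 0.0673, 0.0719 and 0.0874, and 1 transporter was called. Aldh18a1, Got1, Gpt2, Cth and Asns (5 of 19 in amino acid synthesis) rose by between 1.11-fold for Asns and 1.21-fold for Got1. None of these 5 was called without replicate 4 at 2 µM, where Aldh18a1 had an edgeR adjusted p of 0.0529 and Cth 0.187. Asns is named outside the rule. The list held 1 to 3 calls without 0 µM replicates 2 or 4 or 2 µM replicates 1, 2 or 3.

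**Figure D3:**
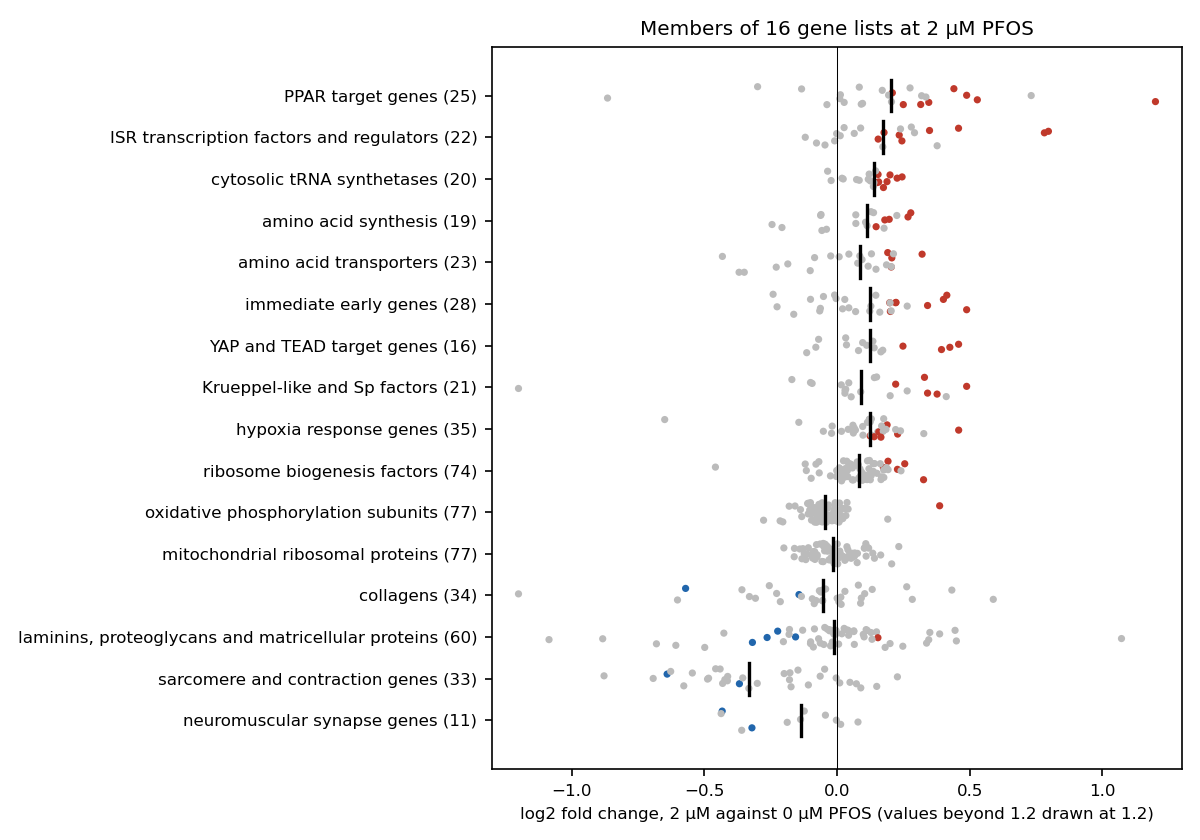
Log2 fold change at 2 µM against 0 µM (horizontal) for each tested member of 16 gene lists (vertical, number tested in brackets); red points were called higher, blue points lower, grey points neither, and black ticks are list medians. The PPAR target median is 0.21 and the sarcomere median -0.33; 3 members beyond 1.2 are drawn at that limit.

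The protein-folding machinery of the endoplasmic reticulum (ER) gave calls in both directions. Among 35 chaperone and degradation genes 3 rose and 2 fell, the median was -0.03 log2, and all 5 calls held in every fit without 1 of the 8 libraries. Ero1l, the oxidase that drives disulfide formation, gave 2069, 1950, 1938 and 2032 CPM at 0 µM and 2598, 2823, 2635 and 2921 CPM at 2 µM, a separated 1.37-fold rise (log2 fold change 0.46 ± 0.037 (SE), edgeR adjusted p = 2.46e-07). Atf6, a membrane-bound sensor of unfolded proteins, rose 1.2-fold (log2 fold change 0.26 ± 0.046 (SE), edgeR adjusted p = 0.00481), and Nupr1 is the third. In the other direction, Sdf2l1, a chaperone cofactor, fell from 30.6, 31.02, 30.2 and 31.4 CPM to 25.2, 25.5, 21.4 and 22.3 CPM (log2 fold change -0.38 ± 0.072 (SE), edgeR adjusted p = 0.0072). Selenos, a selenoprotein of ER-associated degradation, fell from 54.2, 48.2, 48.8 and 50.4 CPM to 40.3, 41.3, 38.4 and 38.1 CPM (log2 fold change -0.35 ± 0.061 (SE), edgeR adjusted p = 0.00349). No values of these 2 genes overlapped between the doses.

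A chaperone and a protease of the mitochondrial matrix rose. The matrix chaperone Hspa9 (mortalin), part of the import motor, gave 1737, 1592, 1656 and 1566 CPM at 0 µM and 1946, 1945, 1900 and 2030 CPM at 2 µM (log2 fold change 0.26 ± 0.035 (SE), edgeR adjusted p = 0.000229). Lonp1, the matrix protease, gave 483, 523, 504 and 514 CPM and 616, 619.9, 579 and 632 CPM (log2 fold change 0.27 ± 0.038 (SE), edgeR adjusted p = 0.000276); it is named outside the rule and was the only call among 23 genes of mitochondrial dynamics and quality control. Both genes were separated between the doses and held in every fit. Timm8a1 and Tomm70a were the other 2 risers among 32 import genes (median 0.01 log2), and both lost their calls without replicate 4 at 2 µM (adjusted p 0.127 and 0.106). Of 77 subunits of oxidative phosphorylation 1 rose and none fell (1.3% against 1.61% of all genes), with a median of -0.04 log2. Changes were positive for 16 of the subunits and negative for 61. None was called among 77 mitochondrial ribosomal proteins or 23 genes of the citric acid cycle.

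Signalling genes of growth and early response made up the third group. Of 28 immediate early genes 8 (28.6%) rose and none fell (median 0.13 log2). Klf10, an early growth response repressor that also stands on the PPAR list, gave 27.1, 26.7, 29.8 and 27.3 CPM at 0 µM and 40.98, 35.7, 41.6 and 37.5 CPM at 2 µM (log2 fold change 0.49 ± 0.066 (SE), edgeR adjusted p = 0.000212). Myc, which drives growth and ribosome production, gave 93.2, 91.6, 96.7 and 89.5 CPM and 118, 119, 123 and 131 CPM (log2 fold change 0.40 ± 0.056 (SE), edgeR adjusted p = 0.000278). Fosl1, an AP-1 subunit, was 32.97, 40.98, 31.9 and 40.8 CPM and 50.01, 47.1, 48.8 and 49.4 CPM (log2 fold change 0.41 ± 0.075 (SE), edgeR adjusted p = 0.00497). For each of the 3 genes the lowest 2 µM library was above the highest control, and the calls held in every fit. The remaining 5 were Klf4, Klf6, Btg1, Ier2 and Jun, of which Btg1, Ier2 and Jun had adjusted p of 0.0948, 0.114 and 0.199 without replicate 4 at 2 µM. The count was 5 without replicate 4 at 2 µM.

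Krüppel-like factors, zinc finger proteins that bind GC-rich promoters, rose as 5 of 15 tested Klf genes (33.3%), with a family median of 0.20 log2. Klf4 gave 66.1, 67.9, 81.2 and 68.9 CPM at 0 µM and 89.7, 89.3, 87.4 and 93.5 CPM at 2 µM (log2 fold change 0.34 ± 0.064 (SE), edgeR adjusted p = 0.00652), and Klf6 gave 135, 131, 131 and 129 CPM and 153, 155, 149.7 and 155 CPM (log2 fold change 0.22 ± 0.039 (SE), edgeR adjusted p = 0.00349). Klf5 and Klf11 rose 1.26-fold and 1.3-fold; Klf5 had an adjusted p of 0.0518 without 0 µM replicate 2, and Klf11 one of 0.056 without 2 µM replicate 4. At 6 against 2 µM, Klf10 and Klf11 rose further, at 30.5, 30.2, 32.7 and 31.1 CPM for Klf11 at 6 µM. In contrast, 387 KRAB and other zinc finger genes had 2 higher calls (0.517%) and a median of 0.00.

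Receptor ligands and their feedback genes followed. Hbegf, a membrane-shed ligand of the EGF receptor, gave 23.8, 24.99, 25.3 and 24.6 CPM at 0 µM and 28.3, 35.6, 32.8 and 35.8 CPM at 2 µM (log2 fold change 0.43 ± 0.076 (SE), edgeR adjusted p = 0.00413). Ereg, a second such ligand, rose 1.35-fold, and its adjusted p was 0.108 without replicate 4 at 2 µM. They were the 2 risers among 9 EGF ligands and receptors. Epha2, an ephrin receptor gene and ERK target, was 234, 223, 235 and 229 CPM at 0 µM and 285, 272, 290.0 and 309 CPM at 2 µM, with no overlap (log2 fold change 0.33 ± 0.043 (SE), edgeR adjusted p = 0.000163). Dusp6, the phosphatase that shuts off ERK, and Hmga1, a chromatin protein, rose 1.24-fold and 1.28-fold, giving 3 of 26 in the list of ERK feedback genes (median 0.14 log2). The list held 1 call without 2 µM replicate 2, where the adjusted p was 0.0987 for Dusp6 and 0.0762 for Hmga1, and 5 without 0 µM replicate 4. Ptgs2 (COX-2), which makes prostaglandins, gave 91.9, 72.4, 79.5 and 71.5 CPM and 106, 115, 118 and 128 CPM (log2 fold change 0.57 ± 0.070 (SE), edgeR adjusted p = 0.000103), and all its exposed values were above all controls.

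Of 16 YAP and TEAD targets 4 (25%) rose and none fell (median 0.12 log2). Cyr61 (CCN1), a secreted matrix-associated protein, gave 350.2, 352, 374 and 331 CPM at 0 µM and 482, 458, 468 and 483 CPM at 2 µM (log2 fold change 0.43 ± 0.046 (SE), edgeR adjusted p = 2.38e-05). Ankrd1, a muscle stress protein of the sarcomere and nucleus, gave 278, 243, 264 and 231 CPM and 329, 316, 326 and 365 CPM (log2 fold change 0.39 ± 0.056 (SE), edgeR adjusted p = 0.0004). These 2 were separated and held in every fit, while Ctgf (CCN2) and Crim1, which rose 1.37-fold and 1.19-fold, had adjusted p of 0.059 and 0.116 without replicate 4 at 2 µM. In the TGF-beta, activin and BMP list 4 of 53 rose. Inhba, the subunit of activin A, gave 144, 117, 120.1 and 119.6 CPM and 166, 177, 180.2 and 164 CPM (log2 fold change 0.46 ± 0.062 (SE), edgeR adjusted p = 0.000212). Grem1, a secreted BMP antagonist, gave 35.8, 30.2, 30.4 and 28.5 CPM and 41.9, 44.2, 49.2 and 49.4 CPM (log2 fold change 0.57 ± 0.078 (SE), edgeR adjusted p = 0.000272). Both genes were separated between the doses. Ltbp1, which tethers latent TGF-beta, rose 1.14-fold (0.0661 without replicate 4 at 2 µM), and the inhibitor Smad7 rose 1.17-fold with an adjusted p of 0.0496 that lost its side of the threshold in all 12 fits without 1 library. The list held 2 calls without replicate 4 at 2 µM.

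Ribosome biogenesis genes mostly had small positive changes. Of 74 ribosome biogenesis factors 5 (6.76%) rose, none fell and 64 had a positive change, with a median of 0.08 log2. Mybbp1a, Nop14, Tsr1 and Ddx21, proteins of the nucleolus and of ribosome assembly, rose between 1.13-fold for Mybbp1a and 1.25-fold for Nop14. No call was left in the list without replicate 4 at 2 µM, and 1 to 3 were left without 0 µM replicates 2, 3 or 4 or 2 µM replicates 2 or 3. The D-type cyclin Ccnd2 rose from 229, 207, 227 and 214 CPM to 259.9, 255, 255 and 275 CPM without overlap (log2 fold change 0.25 ± 0.044 (SE), edgeR adjusted p = 0.00341). Ccnd1 rose 1.1-fold and E2f2, a factor of S-phase entry, fell 1.26-fold; without replicate 4 at 2 µM their adjusted p was 0.141 and 0.0731. These were the 3 calls among 37 cell cycle genes, whose median was 0.00 log2. No gene was called among 91 of DNA replication and repair or 53 histone genes.

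Genes of the hypoxia response rose in 7 of 35 (20%), with none lower and a median of 0.12 log2; 30 had a positive change. Ero1l is one of them and was given above. Slc16a1, a lactate transporter and 1 of 5 risers among 27 glycolysis and lactate genes, gave 228, 236, 237 and 219.9 CPM at 0 µM and 273, 262, 259 and 263 CPM at 2 µM (log2 fold change 0.20 ± 0.038 (SE), edgeR adjusted p = 0.00762). Hexokinase Hk2, phosphofructokinase Pfkp, the collagen hydroxylase Plod2 and the kinase Pgk1 rose 1.17-fold, 1.12-fold, 1.11-fold and 1.09-fold. Without replicate 4 at 2 µM these 4 lost their calls (adjusted p 0.155, 0.094, 0.103 and 0.142) and 1 gene was called in each list. The hypoxia count was 2 or 3 without 0 µM replicates 1 or 3 or 2 µM replicate 2. The glycolysis count was 2 or 3 without 0 µM replicates 1, 2 or 3, 2 µM replicates 1 or 2, or 6 µM replicates 1 or 4.

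Of the 119 lower genes 51, and of the 258 higher genes 88, were in none of the 144 lists. Among the falls that passed at the smallest adjusted p were secreted factors. Igfbp3, which binds insulin-like growth factors, gave 62.1, 60.4, 67.6 and 65.5 CPM at 0 µM and 47.3, 45.2, 45.6 and 46.6 CPM at 2 µM (log2 fold change -0.47 ± 0.058 (SE), edgeR adjusted p = 9.93e-05). Ptn (pleiotrophin), a heparin-binding growth factor, gave 31.2, 32.3, 27.6 and 33.2 CPM and 22.3, 19.3, 21.7 and 24.98 CPM (log2 fold change -0.49 ± 0.085 (SE), edgeR adjusted p = 0.00341). Both were lower in all 4 exposed libraries than in any control, and both fell further at 6 µM, to 34.04, 36.5, 36.2 and 32.4 CPM for Igfbp3.

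A few matrix genes fell. Sparc, a collagen-binding glycoprotein, gave 3834, 3939, 3818 and 3991 CPM at 0 µM and 3562, 3495, 3433 and 3496 CPM at 2 µM, a separated 1.11-fold fall (log2 fold change -0.16 ± 0.027 (SE), edgeR adjusted p = 0.00349). Col14a1, a collagen that sits on fibril surfaces, gave 26.1, 24.5, 27.4 and 35.1 CPM and 20.2, 17.6, 18.98 and 19.1 CPM (log2 fold change -0.57 ± 0.101 (SE), edgeR adjusted p = 0.00368). The highest control, replicate 4, stood above the others, and all 4 exposed libraries were below every control. Among 34 collagens 2 fell and none rose (median -0.05 log2), and among 60 laminins, proteoglycans and matricellular proteins 4 fell and 1, the laminin gene Lamb1, rose (median -0.01). Col3a1, Postn, Spon2 and Emilin1 fell 1.1-fold, 1.17-fold, 1.25-fold and 1.2-fold, and without replicate 4 at 2 µM their adjusted p was 0.0947, 0.108, 0.0554 and 0.148. The second of these lists held 1 or 2 lower calls without any 1 of the 2 µM libraries or 0 µM replicates 2, 3 or 4, and its higher call was absent in 10 of the 12 fits without 1 library. The collagen list held 1 call without any 1 of 8 libraries: 0 µM replicates 2, 3 and 4, 2 µM replicates 2, 3 and 4, and 6 µM replicates 1 and 3. Fibroblast markers, scaled by total counts alone, summed to 12600 to 15100 CPM at 0 µM and 12100 to 13500 at 2 µM. Col3a1 and Postn were the called members. The part of the fibroblast markers in these falls was not tested.

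Genes of the contractile apparatus were mostly lower without passing. Of 33 sarcomere and contraction genes 27 had a negative change and the median was -0.33 log2, and 2 of them, Mylpf and Myh1, passed the test (6.06%). Mylpf, the fast myosin light chain, gave 10.2, 9.01, 7.45 and 12.2 CPM at 0 µM and 7.03, 6.01, 5.92 and 5.89 CPM at 2 µM (log2 fold change -0.64 ± 0.152 (SE), edgeR adjusted p = 0.0263). Myh1, a fast myosin heavy chain, gave 22.6, 20.1, 24.4 and 20.9 CPM and 16.3, 16.5, 18.1 and 17.2 CPM (log2 fold change -0.37 ± 0.096 (SE), edgeR adjusted p = 0.0429). The values of neither gene overlapped between doses, but the calls were lost without several single libraries, with adjusted p of 0.103 and 0.128 without replicate 4 at 2 µM, and the list then held none. The 10 differentiated-muscle markers, 8 of them tested and 2 called (the same genes), summed to 67.6 to 87.2 CPM at 0 µM and 50.2 to 63.1 CPM at 2 µM. These sums were scaled by total counts without TMM, unlike the values of single genes. In these bulk samples, fewer differentiated cells and less RNA per cell cannot be told apart.

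Steadier falls came from 3 genes of the neuromuscular synapse and sarcoplasmic reticulum lists. Dmpk, the myotonic dystrophy kinase, gave 36.3, 44.3, 41.9 and 48.5 CPM at 0 µM and 33.5, 27.5, 33.9 and 31.9 CPM at 2 µM (log2 fold change -0.43 ± 0.083 (SE), edgeR adjusted p = 0.00762). Lrp4, the muscle receptor for agrin, gave 45.4, 45.5, 46.7 and 52.3 CPM and 38.7, 36.5, 38.8 and 38.03 CPM (log2 fold change -0.32 ± 0.059 (SE), edgeR adjusted p = 0.00609). These were 2 of 11 neuromuscular synapse genes (18.2%), with none higher. Srl (sarcalumenin), a calcium-binding protein of the sarcoplasmic reticulum, gave 17.6, 15.8, 13.7 and 17.9 CPM and 10.8, 10.2, 11.6 and 11.3 CPM (log2 fold change -0.56 ± 0.109 (SE), edgeR adjusted p = 0.00797). Srl was the only call among 18 genes of sarcoplasmic reticulum calcium handling and triads (median -0.06 log2). Dmpk, Lrp4 and Srl were lower in each exposed library than in any control, and their calls held in every fit. Eya1, a transcriptional coactivator of early muscle development, fell 1.33-fold, with an adjusted p of 0.152 without replicate 4 at 2 µM. The master regulators did not pass: Myod1 had 27.2, 31.8, 29.3 and 32.9 CPM at 0 µM and 29.00, 27.9, 30.3 and 25.1 CPM at 2 µM (log2 fold change -0.11 ± 0.079 (SE), edgeR adjusted p = 0.579), and Myog 6.31, 6.20, 8.90 and 7.20 CPM and 6.45, 4.31, 5.32 and 5.80 CPM (log2 fold change -0.39 ± 0.153 (SE), edgeR adjusted p = 0.225).

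The imprinted genes Peg3 and Zim1, neighbours on chromosome 7, both fell. Zim1, a zinc finger gene, gave 33.2, 30.02, 30.1 and 29.8 CPM at 0 µM and 17.1, 21.6, 23.1 and 20.8 CPM at 2 µM (log2 fold change -0.57 ± 0.116 (SE), edgeR adjusted p = 0.0108). Peg3, a paternally expressed zinc finger gene, gave 244, 220.1, 234 and 247 CPM and 197, 206, 211 and 199 CPM (log2 fold change -0.22 ± 0.042 (SE), edgeR adjusted p = 0.00818). Both were separated and held in every fit. They were 2 of 18 imprinted protein-coding genes (11.1%), of which 16 had a negative change (median -0.06 log2). The imprinted RNA H19, abundant in myoblasts, gave 848, 932, 931 and 941 CPM and 798, 811, 799 and 786 CPM, a 1.14-fold fall (log2 fold change -0.19 ± 0.037 (SE), edgeR adjusted p = 0.0072) that also held in every fit. H19 is named outside the rule.

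Further falls concerned negative regulators and receptors. Mxd4, which opposes Myc at shared sites, gave 84.8, 89.2, 85.9 and 89.6 CPM at 0 µM and 68.8, 68.1, 65.9 and 68.8 CPM at 2 µM, with no overlap (log2 fold change -0.36 ± 0.047 (SE), edgeR adjusted p = 0.000163). With Hes6 (1.32-fold lower, adjusted p 0.142 without replicate 4 at 2 µM) it made 2 of 26 basic helix-loop-helix repressors and inhibitors. Adgrg2, an adhesion G protein coupled receptor, gave 24.9, 20.7, 22.4 and 26.2 CPM and 15.2, 17.4, 16.6 and 16.7 CPM (log2 fold change -0.51 ± 0.089 (SE), edgeR adjusted p = 0.00341), and Bdkrb1, a bradykinin receptor at a low level, fell 2.89-fold (0.0731 without replicate 4 at 2 µM). Among 82 such receptors 2 rose and 2 fell, and without replicate 4 at 2 µM none and 1 did. Padi2, which converts arginine to citrulline in proteins, was 8.79, 6.84, 8.40 and 8.37 CPM at 0 µM and 5.51, 3.85, 4.74 and 5.18 CPM at 2 µM (log2 fold change -0.75 ± 0.154 (SE), edgeR adjusted p = 0.0114). The WNT list gave 2 falls among 40, Fzd5 and Wnt10b at 1.33-fold and 1.23-fold; Fzd5 had an adjusted p of 0.0773 without 0 µM replicate 4, and Wnt10b one of 0.173 without 2 µM replicate 4.

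The lists of detoxification enzymes and selenoproteins gave 2 falls each and no rise. Fmo1, a flavin monooxygenase, gave 40.5, 35.1, 41.01 and 37.96 CPM at 0 µM and 31.6, 30.2, 30.6 and 31.5 CPM at 2 µM (log2 fold change -0.32 ± 0.065 (SE), edgeR adjusted p = 0.0114), separated and held in every fit. With Gstm2 (1.15-fold, adjusted p 0.111 without replicate 4 at 2 µM) it made 2 of 44 conjugating and related enzymes. The selenoprotein list gave Selenos and Gpx1 (2 of 22), the latter 1.14-fold lower and at 0.0948 without replicate 4. C1qtnf6, a secreted C1q/TNF-related protein, was 83.2, 94.04, 95.7 and 102 CPM at 0 µM and 76.2, 79.01, 74.8 and 65.5 CPM at 2 µM (log2 fold change -0.34 ± 0.061 (SE), edgeR adjusted p = 0.00439). C1qtnf3, of the same family, fell 1.16-fold, and its adjusted p was 0.104 without replicate 2 and 0.0947 without replicate 4 at 2 µM. Among 22 circadian clock genes 2 rose and 2 fell, with a median of 0.04 log2. The activators Tef and Dbp fell 1.16-fold and 1.32-fold, and the repressors Ciart and Nfil3 rose 1.28-fold and 1.15-fold. None of these 4 was called without replicate 4 at 2 µM (adjusted p 0.0971, 0.141, 0.142 and 0.191).

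Some of the larger rises stood outside these functions. Dnah6, an axonemal dynein heavy chain, rose from 0.765, 1.04, 0.975 and 0.782 CPM to 2.68, 3.02, 2.30 and 3.54 CPM (log2 fold change 1.68 ± 0.211 (SE), edgeR adjusted p = 0.000106). Kctd16, an auxiliary subunit of GABA-B receptors, rose from 6.09, 5.22, 5.52 and 6.06 CPM to 9.18, 11.1, 8.72 and 11.1 CPM (log2 fold change 0.81 ± 0.122 (SE), edgeR adjusted p = 0.000706). Trim66, a chromatin-binding member of the tripartite motif family, rose from 9.22, 8.19, 9.77 and 8.24 CPM to 12.9, 12.7, 14.8 and 15.3 CPM (log2 fold change 0.65 ± 0.100 (SE), edgeR adjusted p = 0.000888). All 3 were separated between the doses and held in every fit. With Trim33, Trim16 and Trim35 (1.19-fold, 1.2-fold and 1.14-fold) it made 4 of 42 Trim genes (9.52%). The other 3 lost their calls without replicate 4 at 2 µM (adjusted p 0.0712, 0.101 and 0.148). The processed pseudogene Gm10705 rose from 1.23, 1.82, 2.35 and 2.31 CPM to 5.89, 9.20, 7.24 and 11.5 CPM (log2 fold change 2.13 ± 0.280 (SE), edgeR adjusted p = 0.000163), and another, Gm5854, fell from 14.5, 18.7, 27.1 and 28.5 CPM to 5.38, 4.51, 7.43 and 4.01 CPM (log2 fold change -2.06 ± 0.253 (SE), edgeR adjusted p = 9.93e-05). Reads of a processed pseudogene may come from its parent gene or other copies, so both values are uncertain. Gm10705 is named outside the rule.

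Most of the low-dose calls were not followed by a further call between 6 and 2 µM: 233 of the 258 higher and 106 of the 119 lower genes were not called there, where 0.561% of tested genes were higher and 0.549% lower. At 6 against 0 µM, where 4.58% of all genes were higher and 3.66% lower, 179 of the 258 were called higher and 88 of the 119 lower. That comparison uses the same control libraries. The 16 genes that rose again at 6 against 2 µM included Angptl4, Cpt1a and Plin2, and the 11 that fell again included Igfbp3 and Ptn. In the opposite direction, 9 genes called higher at 2 µM were called lower at 6 against 2 µM, and 2 genes called lower were then called higher. Both comparisons use the same 2 µM libraries, so the 11 reversals are not independent of the first call.

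The 9 were Cyr61, Ptx3, Ankrd1, Tsc22d3, Csf1, Pnrc2, Nupr1, Tlk2 and Gadd45a. Cyr61, whose 0 and 2 µM levels stand above, stood at 383, 391.9, 369.5 and 338 CPM at 6 µM, which overlaps the controls (log2 fold change -0.35 ± 0.046 (SE), edgeR adjusted p = 0.000188 for 6 against 2 µM). Ptx3, a secreted pattern-recognition protein, gave 92.04, 77.4, 90.2 and 74.8 CPM at 0 µM and 115, 117, 119 and 147 CPM at 2 µM (log2 fold change 0.57 ± 0.083 (SE), edgeR adjusted p = 0.000443), and 89.3, 97.7, 92.7 and 75.96 CPM at 6 µM (log2 fold change -0.49 ± 0.083 (SE), edgeR adjusted p = 0.00268 for 6 against 2 µM). Its 2 µM libraries were above every library of the other doses. Csf1, the growth factor of macrophages, gave 394, 394, 406 and 374 CPM, 434, 445, 478 and 487 CPM and 395, 428, 388 and 404 CPM at 0, 2 and 6 µM (log2 fold change 0.23 ± 0.044 (SE), edgeR adjusted p = 0.00652 at 2 against 0 µM). Gadd45a, a stress-induced cell cycle inhibitor, gave 107, 98.5, 100.2 and 82.2 CPM, 139, 135, 128 and 152 CPM and 112, 122, 116 and 90.4 CPM (log2 fold change 0.51 ± 0.080 (SE), edgeR adjusted p = 0.00113 at 2 against 0 µM). For both genes the 6 µM values overlapped the controls.

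The first calls for Tsc22d3 and Pnrc2 (1.17-fold and 1.14-fold) were lost without replicate 4 at 2 µM (adjusted p 0.166 and 0.144), as was that of Tlk2 at 0.0529. In the list of YAP and TEAD targets 4 of 16 were called lower at 6 against 2 µM. Of the genes that fell first, Efna3, an ephrin ligand, gave 5.57, 5.91, 5.20 and 3.52 CPM at 0 µM, 3.13, 2.75, 2.40 and 2.41 CPM at 2 µM and 5.33, 4.70, 5.06 and 6.02 CPM at 6 µM (log2 fold change -0.92 ± 0.177 (SE), edgeR adjusted p = 0.00762 at 2 against 0 µM). All 4 libraries at 2 µM were lower than every other library. Txnip, a glucose-responsive inhibitor of thioredoxin, gave 16.3, 16.5, 16.9 and 15.3 CPM, 13.96, 10.6, 13.2 and 12.6 CPM and 20.3, 19.9, 19.5 and 15.8 CPM, and its first call (log2 fold change -0.37 ± 0.099 (SE), edgeR adjusted p = 0.0486) was lost in 10 of the 12 fits without 1 library. Tlk2 is named outside the rule.

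**Figure D4:**
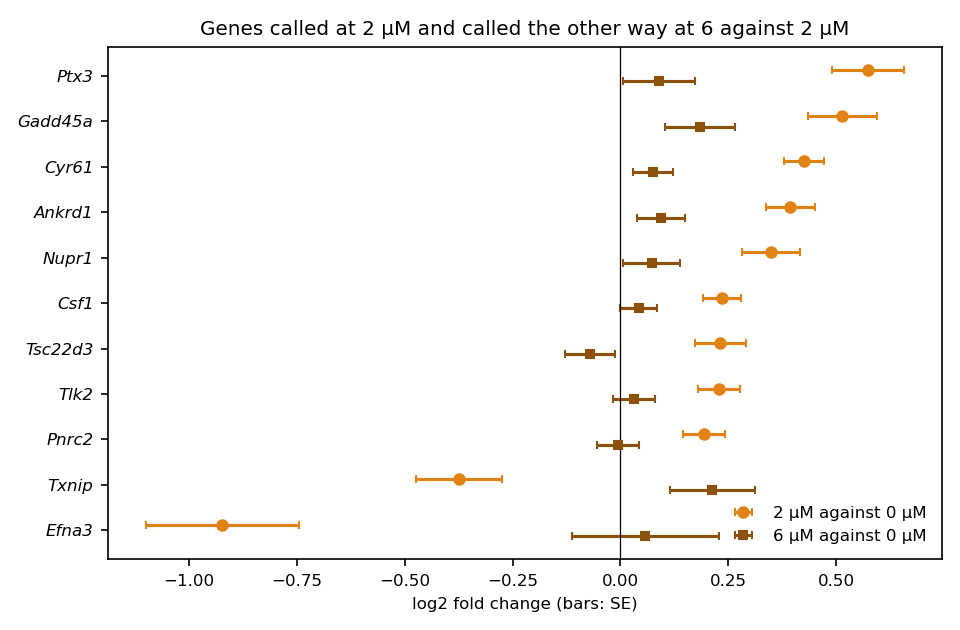
Log2 fold change against 0 µM (horizontal, bars SE) at 2 µM (circles) and 6 µM (squares) for the 11 genes called at 2 µM and called the other way at 6 against 2 µM. The SE was worked back from the edgeR test. Ptx3, Gadd45a and Cyr61 have the largest rises at 2 µM (0.57, 0.51 and 0.43), and Efna3 falls by 0.92 at 2 µM and stands at 0.06 at 6 µM.

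The level of noncoding genes was also read. Among 516 tested genes annotated as unconfirmed or sense-intronic transcripts, 69.8% had a negative change at 2 µM, the median was -0.24 log2, and 3 were called lower and none higher. Long noncoding genes had a median of -0.14 (1305 tested, 1 higher and 8 lower) and pseudogenes one of -0.10 (1293 tested, 3 and 3). Protein-coding genes had a median of 0.00 (12832 tested, 251 and 105). The medians of the 3 noncoding classes were negative in each of 4 bins of level. Protein-coding medians were negative too in the 3 lower bins, at -0.05 under -2 log2 CPM, -0.12 from -2 to 0 and -0.10 from 0 to 2. In those bins pseudogenes had medians of -0.22, -0.16 and -0.12 and long noncoding genes -0.21, -0.20 and -0.13. The unconfirmed and sense-intronic genes took 0.0738 to 0.0812% of counts at 0 µM and 0.0574 to 0.0728% at 2 µM, with no overlap (exact two-sided permutation p = 0.0286, adjusted 0.114). The TMM factors were also lower in every 2 µM library than in every control, and their part in these medians was not tested.

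**Figure D5:**
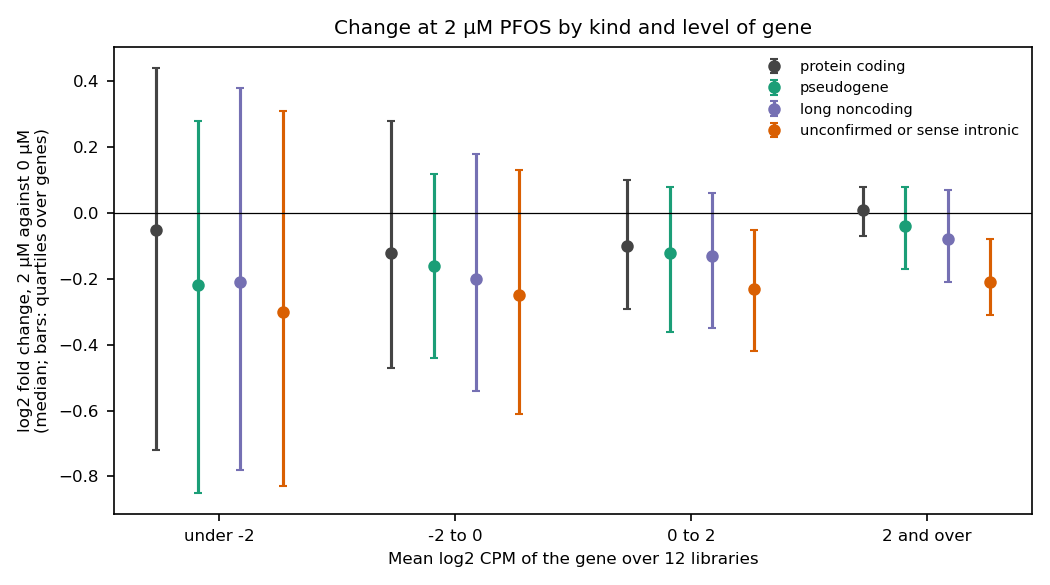
Median log2 fold change at 2 µM against 0 µM (vertical, bars are quartiles over genes) for 4 kinds of gene in 4 bins of mean level (horizontal, log2 CPM over 12 libraries). Unconfirmed and sense-intronic genes have medians from -0.30 to -0.21, and protein-coding genes of 2 log2 CPM and over a median of 0.01.

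Some rises may rest on reads that other sequences share, which was not tested. The annotated ribosomal RNA feature CT010467.1 gave 2200, 2361, 2544 and 1690 CPM at 0 µM and 2735, 2729, 3003 and 3520 CPM at 2 µM (log2 fold change 0.45 ± 0.088 (SE), edgeR adjusted p = 0.00919). Its adjusted p was 0.0552 without replicate 4 at 2 µM. Lars2, the mitochondrial leucine tRNA synthetase gene, gave 1286, 1228, 1109 and 843 CPM and 1360, 1437, 1597 and 1785 CPM (log2 fold change 0.47 ± 0.089 (SE), edgeR adjusted p = 0.00762). Both varied widely within each dose and were lowest in replicate 4 at 0 µM and highest in replicate 4 at 2 µM. Counts at Lars2 are uncertain because the mouse locus is known to share sequence with ribosomal RNA, and the part of ribosomal RNA in its rise was not tested. Rbpj, the DNA-binding partner of Notch, rose from 162, 134, 157 and 146 CPM to 175, 182, 178 and 199 CPM (log2 fold change 0.29 ± 0.056 (SE), edgeR adjusted p = 0.0072). Its processed pseudogene Rbpj-ps3 rose from 74.2, 64.5, 75.6 and 73.1 CPM to 88.7, 94.9, 94.5 and 99.3 CPM (log2 fold change 0.39 ± 0.058 (SE), edgeR adjusted p = 0.000552), and the counting could have split reads between the copies. These 4 genes were chosen after their values were seen.

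Heat shock and DNAJ genes gave 2 higher (Hspa9 and Dnaja3) and 3 lower calls (Fkbp14, Cryab and Dnaja1) among 105, with a median of 0.00, and 1 and none without replicate 4 at 2 µM. Snhg1 and Gadd45a rose and Snhg4 fell among 29 host genes of small nucleolar RNAs and targets of RNA decay; without that library 1 was called. By symbol, 3 of 10 Atf genes (Atf3, Atf6 and Atf4) and 3 of 61 Ppp genes (Ppp1r15a, Ppp1r15b and Ppp2r2a) rose. The Ppp count was 1 or 2 in every fit without 1 library, and Ppp2r2a lost its call in all 12 (adjusted p 0.0547 to 0.206). By the table's own transcription factor classes, 7 of 43 bZIP genes rose and 2 fell (median 0.03 log2), and 3 and none without that library. Of 67 genes whose names begin with AC 3 fell, but AC marks a sequenced clone and not a family.

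In all, 39 of the 144 lists met the count for description, and 105 did not. Medians of those 105 lay between -0.14 and 0.08 log2, and 35 of them had no call. Large classes such as 228 solute carriers (9 higher, 1 lower), 264 ubiquitin ligases (9 and 2) and 82 cytosolic ribosomal proteins (2 and 0) held shares of higher calls of 3.95%, 3.41% and 2.44%, beside 1.61% of all tested genes. No member was called among 36 interferon response genes or 60 cadherins. A gene that did not pass at this depth may still differ. At an unadjusted edgeR p below 0.05, 1263 genes had a positive and 1000 a negative change. These counts include the genes already called, and chance alone puts about 5% of tested genes below that limit.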

How the data were processed

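RNA-seq read counts per gene from 12 libraries (4 each at 0, 2 and 6 µM PFOS) were analysed. The deposited count table holds whole-number counts that the authors made per gene, per the file headers. HISAT2 and GRCm39 are named in the submitters' processing notes, but 98.3% of shared gene identifiers have the start and end of GENCODE M21 (GRCm38), so coordinates here are GRCm38; no source used here names the counter or its strand setting, so reads of antisense or overlapping genes cannot be told apart. Groups came from the labels. The filter of edgeR (4.0.16, filterByExpr) kept 16038 of 54532 genes. A quasi-likelihood model with TMM scaling was fitted to all 12 libraries (9 residual degrees of freedom, biological coefficient of variation 10.8%), since the doses share 1 estimate of spread, and 2 against 0 µM was tested with Benjamini-Hochberg adjustment at 0.05 and, with glmTreat, against a minimum fold of 1.2. CPM values use the TMM-scaled library sizes, except the marker sums and the Fabp4 and Krt14 ranges, which use total counts. Each SE was worked back from a gene's log2 fold change and its edgeR test statistic. It therefore restates the test and is no separate estimate of spread. Held calls are those kept when each library was left out in turn. On counts simulated with changes of 1.25-fold, 1.5-fold and 2-fold the fit was checked and recovered known changes. Those counts were drawn from the means and dispersions of the fit itself, with no deviating library. The check therefore cannot show how calls behave with a library such as replicate 4 at 2 µM. Smaller changes were not simulated, and the median called rise was 1.19-fold. Library measures were compared with exact permutation tests. Alternatives used DESeq2 1.42.0, limma 3.58.1 (voom), other scalings, filters, a replicate block and a length correction.

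The members and the 144 gene lists were chosen with earlier results of these data known, so lists are described by counts and medians without a test. Named genes are the 15 largest changes each way with no overlap between doses, the 10 smallest adjusted p, up to 4 called members of each described list, called members of described families, and genes called the other way at 6 against 2 µM; Atf4, Ddit3, Pparg, Myod1 and Myog are always given. Named outside this rule, after their values were seen, were Ucp2, Ech1, Trib3, Cebpg, Asns, Lamb1, Lonp1, H19, Tlk2, Gm10705, Gfpt2, Lars2, CT010467.1, Rbpj and Rbpj-ps3, the genes of the closing observations, and list members given by name alone. Some genes that meet the rule, and the lists whose counts rest on them, are not reported here. Promoter sequences are from RefSeq.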

Additional observations from a re-analysis of the deposited data

Results flagged for a closer look

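For each gene named in the text, the library farthest from its group was compared with the spread of the other libraries of its dose (Dixon's ratio, 95% level). Of 302 groups of 4 libraries, 17 had a library that far from the others, where chance gives about 5%.

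Replicate 4 at 2 µM stood above its group for Shmt2 (546 CPM), Lars (517 CPM), Ddx21 (239 CPM), Got1 (188 CPM) and Ptx3 (147 CPM). Replicate 3 at 2 µM stood below its group for Atf4 (1003 CPM), Trib3 (244 CPM), Aldh9a1 (112 CPM) and Gstm2 (56.9 CPM). Replicate 1 at 2 µM stood above its group for Emilin1 (89.4 CPM) and Mylpf (7.03 CPM), and below it for Dhrs9 (51.5 CPM). Among the controls, replicate 1 stood above its group for Inhba (144 CPM) and Zim1 (33.2 CPM) and below it for H19 (848 CPM). Replicate 4 at 0 µM stood below its group for Gars (649 CPM) and above it for Tef (167 CPM). The calls for Aldh9a1, Dhrs9, Ptx3, Inhba, Zim1 and H19 held in each of the 12 fits without 1 library.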

How the results depend on the processing

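Genes called at 2 against 0 µM numbered 258 higher and 119 lower in the fit reported. DESeq2 gave 524 and 227, a fit with no count filter 438 and 193, and library totals in place of TMM 136 higher and 178 lower. The other alternatives (DESeq2's size factors in edgeR, upper-quartile scaling, limma-voom, a mean count of at least 50, the 8 libraries alone, a length trend removed, without the 3 most deviating libraries) stayed within 1.5 times of both counts. With 1 library left out the counts ran from 72 to 322 higher and from 34 to 168 lower, with the fewest without replicate 4 at 2 µM, where 104 of the 377 calls remained. Against a minimum of 1.2-fold, 9 higher and 1 lower became 4 higher with limma-voom, 26 and 9 with no count filter, and 2 lower without the 3 most deviating libraries; with 1 library left out they were 6 to 12 and 1 to 2. None of the named genes changed direction under any alternative.

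Replicate numbers are shared between doses, but libraries of the same number did not deviate together (correlations -0.028, 0.0178, 0.0375 and -0.0221), so the numbers were not taken as pairs. With a replicate block 192 genes were higher and 81 lower (7 and 1 past the 1.2-fold minimum), and 263 of those 273 calls were shared with the fit reported. The median level was 6.84 log2 CPM for genes called higher and 4.15 for all tested genes; how depth limits calls among low genes was not tested.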

Other observations

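Some calls belong to none of the groups above; they were chosen after their values were seen. Tnfrsf12a, the receptor for the cytokine TWEAK, gave 90.8, 94.7, 90.7 and 88.9 CPM at 0 µM and 109, 110.5, 106 and 114 CPM at 2 µM (log2 fold change 0.27 ± 0.044 (SE), edgeR adjusted p = 0.00212). Cpox, an enzyme of heme synthesis, gave 134, 121, 138 and 119 CPM and 167, 156, 149 and 167 CPM (log2 fold change 0.32 ± 0.053 (SE), edgeR adjusted p = 0.00239). In each case all exposed libraries were above all controls, and the call held in every fit without 1 library.

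Stard5, a lipid-binding protein of the START family, gave 44.8, 39.2, 48.4 and 38.2 CPM at 0 µM and 61.9, 60.5, 52.6 and 67.3 CPM at 2 µM (log2 fold change 0.51 ± 0.081 (SE), edgeR adjusted p = 0.00153), again with no overlap and in every fit. Cp (ceruloplasmin), a copper-carrying ferroxidase, fell from 78.4, 74.2, 72.4 and 71.2 CPM to 55.2, 61.4, 62.2 and 58.1 CPM (log2 fold change -0.32 ± 0.054 (SE), edgeR adjusted p = 0.00239), with every exposed library below every control and the call kept in every fit. Gas1, a membrane protein first named for growth arrest, fell from 77.03, 84.2, 87.4 and 84.1 CPM to 74.2, 66.2, 70.5 and 66.5 CPM (log2 fold change -0.26 ± 0.054 (SE), edgeR adjusted p = 0.0114), and its adjusted p was 0.0675 without replicate 4 at 2 µM.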
